A study of Rattus norvegicus with 24 samples.

Results

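T-type calcium and HCN pacemaker channels were followed at the messenger RNA level in perilesional cortex and in ipsilateral thalamus. The group holds 7 genes, taken by name: the T-type channel genes Cacna1g, Cacna1h and Cacna1i, the HCN channel genes Hcn2, Hcn3 and Hcn4, and Pex5l, which encodes the auxiliary HCN subunit TRIP8b. Each name had 1 locus among the 26641 named loci of the table, which lists 42334 loci in all. The rats were adult male Sprague-Dawley animals. In TBI rats a lateral fluid-percussion injury had been made 3 months earlier, and the controls were sham-operated. The study picked the TBI rats for signs of chronic inflammation around the lesion on magnetic resonance images, so they do not stand for every injured rat. There were 6 TBI and 6 sham-operated rats, and both regions of each rat were sequenced, which gave 24 libraries in 4 groups.

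T-type channels open near the resting potential and carry the calcium current that gives a low-threshold burst of spikes. HCN channels open on hyperpolarization, carry a depolarizing cation current and are tuned by cyclic AMP. In the thalamus the currents work together to set whether relay neurons fire in bursts or tonically, and they take part in sleep spindles and in spike-wave rhythms. Cacna1g is known as the main T-type gene of thalamic relay neurons, Cacna1h and Cacna1i are known from the neurons of the thalamic reticular nucleus, and Hcn2 and Hcn4 are known from relay neurons.

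The loci are given as the authors' annotation places them. The submitters' processing notes name the build Rnor_5.0, but the study's methods name RGSC3.4 as the genome and Rnor_5.0 as the transcript annotation, so the build of these positions is uncertain. Cacna1g lies on chromosome 10 from 81950593 to 82017990, Cacna1h on chromosome 10 from 14543703 to 14605439 and Cacna1i on chromosome 7 from 121545987 to 121612900. Hcn2 lies on chromosome 7 from 13011141 to 13040277, Hcn3 on chromosome 2 from 207865575 to 207888665, Hcn4 on chromosome 8 from 63367892 to 63407590 and Pex5l on chromosome 2 from 138976950 to 139186041. A value is the count of all fragments of such a gene locus after the authors' scaling of libraries by size factors, called a normalised count. A library held between 30568927 and 54608922 fragments, and no channel gene had under 100 fragments in any library, so counting error was small beside the spread between rats. Lengths of the transcripts were not used, so levels are compared between samples and never between genes. The labelled tissues were checked in the sham-operated rats. Of 11 relay neuron markers, 9 were higher in thalamus, with Lhx2 lower and Tnnt1 not past the threshold, and all 8 cortical excitatory markers tested were lower there. Markers of choroid plexus were high in the thalamus libraries of sham-operated rats 34 (64986) and 50 (103694) and of TBI rat 45 (246371), as summed normalised counts, and lay between 480 and 1670 in the other thalamus libraries. In cortex the same sum was highest in TBI rat 45 (30204) and in sham rats 26 (22317) and 34 (10554), and lay between 300 and 2051 in the others, rat 50 included. Rats 34, 45 and 50 are called choroid-rich by their thalamus libraries, and calls that changed without these 3 rats are given with that value.

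The channel genes divided by region in sham-operated rats. Hcn4, Cacna1g, Hcn3 and Hcn2 were higher in the thalamus, and Cacna1h, Cacna1i and Pex5l were higher in the cortex. All 7 passed the threshold of 0.05 for the adjusted p of limma, with no overlap between the 6 libraries of one region and the 6 of the other. Over all loci tested, 33.5% were called higher and 27.9% lower in thalamus, and the groups did not overlap for 42.9%. The median log2 fold change of the 7 genes, thalamus against cortex, was 0.97, against 0.031 for all loci. With 4 genes higher and 3 lower, this median is the value of Hcn2 and shows no shared direction.

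Hcn4, the slowly opening and cyclic AMP-sensitive HCN channel of pacemaking cells, had the widest gap between regions. In sham cortex its level ran from 112 to 190 normalised counts with a median of 158, and in sham thalamus from 2475 to 3659 with a median of 2923. Every thalamus library stood far above every cortex library. The fitted level in thalamus was 19.8 times that in cortex (log2 fold change 4.31, SE 0.15, limma adjusted p = 3.92e-18). Hcn2, the HCN channel with the widest known role in thalamic rhythm, ranged from 3496 to 4560 with a median of 4170 in sham cortex and from 6973 to 8738 with a median of 8298 in sham thalamus. Its thalamic level was 1.97 times the cortical one (log2 fold change 0.97, SE 0.073, limma adjusted p = 1.26e-11). Hcn3, an HCN channel that responds little to cyclic AMP, ranged from 436 to 589 with a median of 559 in sham cortex and from 1022 to 1244 with a median of 1138 in sham thalamus, a ratio of 2.14 (log2 fold change 1.10, SE 0.092).

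Of the T-type genes, only Cacna1g was higher in sham thalamus than in sham cortex. It ranged from 2754 to 4197 normalised counts in sham cortex with a median of 3294, and from 7753 to 10919 in sham thalamus with a median of 9301. The ratio was 2.73 (log2 fold change 1.45, SE 0.093, limma adjusted p = 4.73e-13). Cacna1h, which carries a T-type current also found in sensory neurons, ranged from 1165 to 1790 with a median of 1509 in sham cortex and from 286 to 647 with a median of 358 in sham thalamus. Its thalamic level was 0.262 times the cortical one (log2 fold change -1.93, SE 0.16). Cacna1i, whose slow current lengthens bursts, ranged from 6792 to 9487 with a median of 7638 in sham cortex and from 2062 to 2726 with a median of 2244 in sham thalamus, a ratio of 0.299 (log2 fold change -1.74, SE 0.077). Pex5l, whose splice forms raise or lower the number of HCN channels at the membrane, showed the smallest gap, with 10731 to 13852 (median 12907) in sham cortex and 6947 to 9402 (median 8978) in sham thalamus. The Pex5l ratio was 0.675 (log2 fold change -0.57, SE 0.091, limma adjusted p = 5.95e-06).

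**Figure D1:**
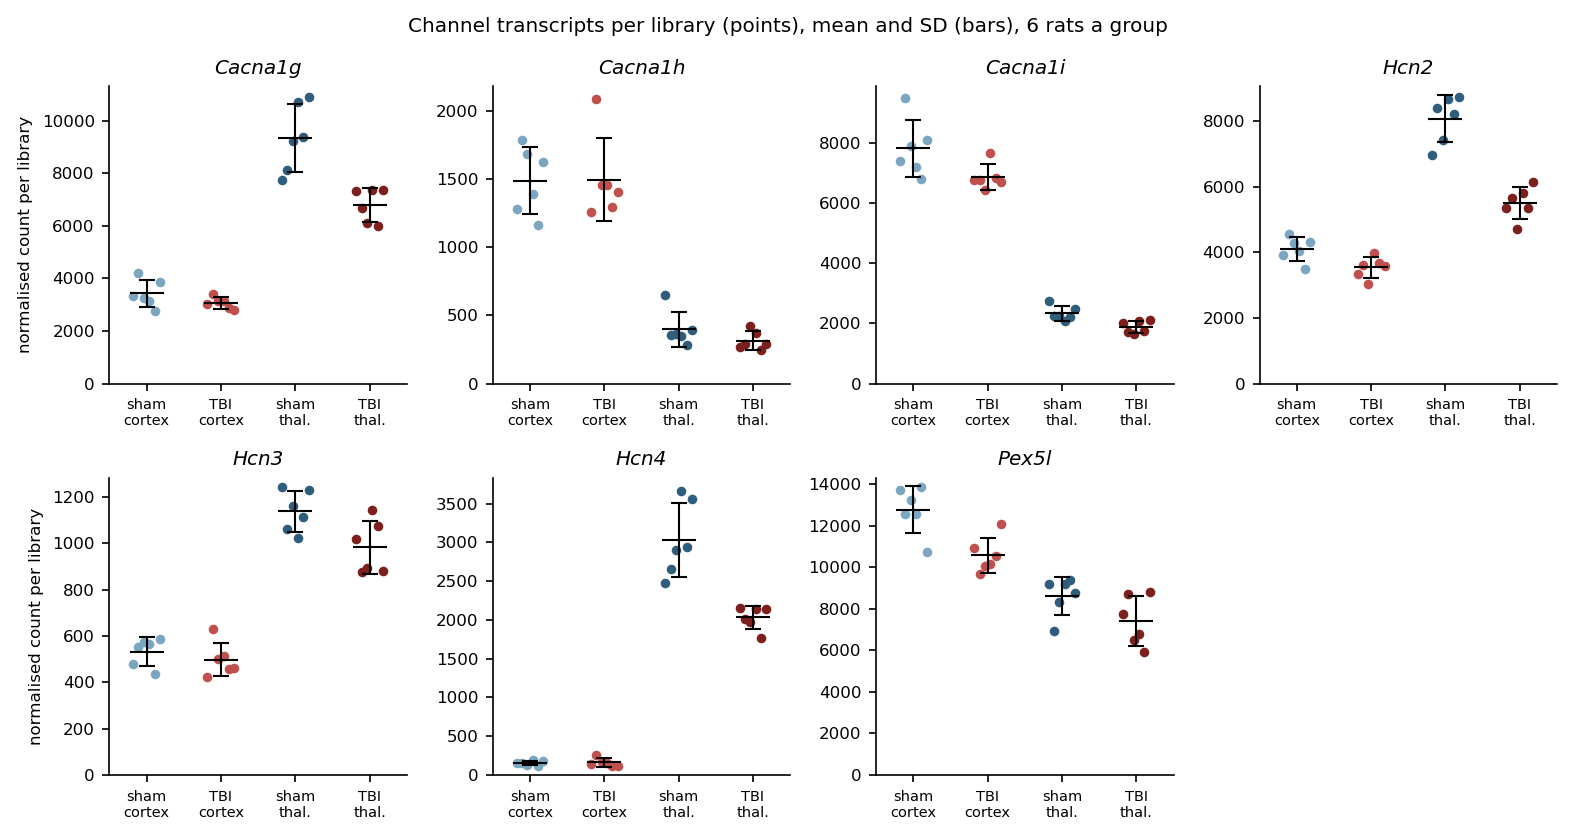
Normalised counts of the 7 channel genes in the 24 libraries, with 6 points for each of sham cortex, TBI cortex, sham thalamus and TBI thalamus (thal.), and bars for the mean and SD; each panel has its own axis from 0. Hcn4 lies between 112 and 263 in all cortex libraries and between 1764 and 3659 in all thalamus libraries, and in thalamus the TBI points of Cacna1g, Hcn2 and Hcn4 all lie below the sham points.

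**Figure D2:**
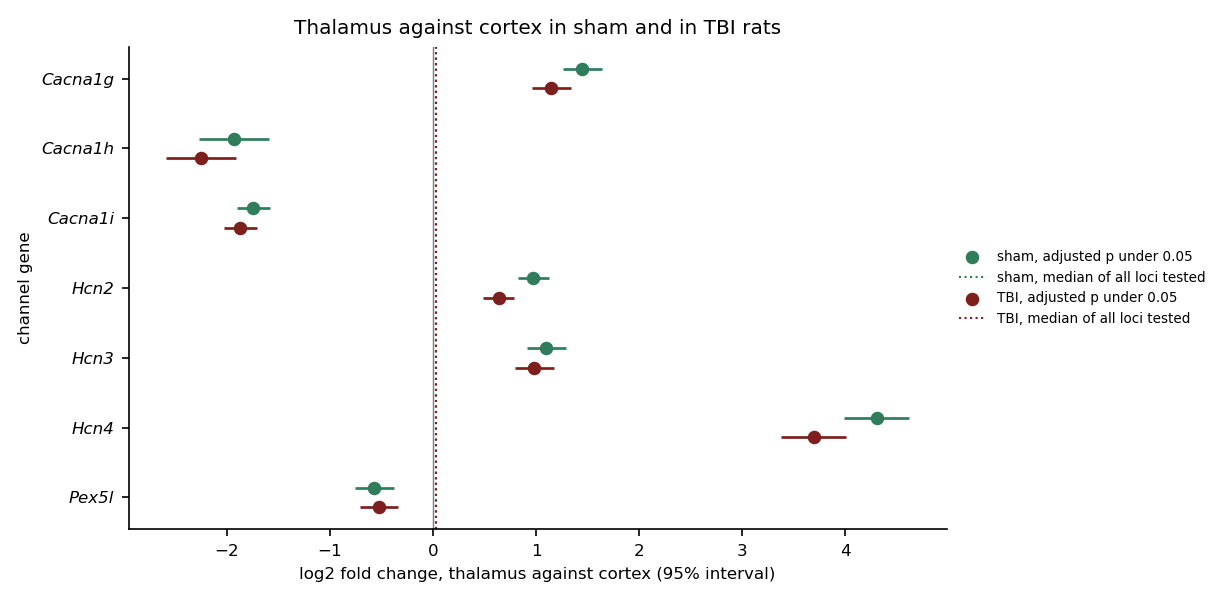
Log2 fold change between thalamus and cortex for each channel gene in sham-operated and in TBI rats, with 95% intervals of the fit and a dotted line at the median of all loci tested (0.031 in sham-operated and 0.029 in TBI rats, so the lines nearly coincide). Hcn4 stands at 4.31 in sham-operated and 3.69 in TBI rats, and Cacna1h at -1.93 and -2.25.

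In the ipsilateral thalamus the main relay-type channels were lower 3 months after TBI. Hcn4, Hcn2 and Cacna1g fell to between 0.675 and 0.731 of the sham level, with every TBI library below every sham library, and Cacna1i and Hcn3 fell by less. Of the 7 genes, 5 were called lower and 0 higher, where 20.9% of all loci tested were called lower and 14.5% higher. Under TMM scaling Hcn3 was not called, and 2357 of 15566 loci were called lower and 2796 higher. The log2 fold changes of Hcn4, Hcn2 and Cacna1g were then -0.52, -0.50 and -0.40. The groups did not overlap for 3 of the 7 genes and for 18.2% of all loci. The median log2 fold change of the 7 genes was -0.32, against -0.023 for all loci. These are whole-tissue samples, in which fewer cells of a type and less RNA per cell cannot be told apart.

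Hcn4 in TBI thalamus had a lowest value of 1764, a median of 2076 and a highest of 2156 normalised counts, against 2475, 2923 and 3659 in sham thalamus. The TBI rats lay close together and the sham-operated rats were spread above them. The mean was 2032 ± 152 (SD, n = 6) in TBI and 3034 ± 480 (SD, n = 6) in sham rats. The log2 fold change was -0.57 (SE 0.092, limma adjusted p = 0.000319), and 3.66% of all loci tested had a fold change as low or lower. Hcn2 ran from 4707 through a median of 5498 to 6152 in TBI thalamus, against 6973, 8298 and 8738 in sham thalamus. The groups were apart, with the highest TBI rat, 63, below the lowest sham rat, 26. The Hcn2 mean was 5502 ± 495 (SD, n = 6) against 8063 ± 715 (SD, n = 6), and the log2 fold change was -0.55 (SE 0.071, limma adjusted p = 5.11e-05). Hcn3 ran from 878 through 957 to 1146 in TBI thalamus and from 1022 through 1138 to 1244 in sham thalamus. The ranges overlapped, with 4 of the 6 TBI rats below every sham rat. The log2 fold change of Hcn3 was -0.22 (SE 0.079, limma adjusted p = 0.0442), close to the threshold. It was not past the threshold with the rat as a block (adjusted p = 0.0722), under TMM scaling (0.112), without the 3 choroid-rich rats (0.168), or when rat 22, 24, 26, 34, 45, 50, 55 or 63 was left out alone (from 0.0534 to 0.0992).

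Cacna1g in TBI thalamus ran from 6000 through a median of 7009 to 7361 normalised counts, against 7753, 9301 and 10919 in sham thalamus. No TBI rat reached the lowest sham rat. The mean was 6806 ± 640 (SD, n = 6) against 9357 ± 1297 (SD, n = 6), and the log2 fold change was -0.45 (SE 0.089, limma adjusted p = 0.00135). Cacna1i ran from 1654 through 1884 to 2094 in TBI thalamus and from 2062 through 2244 to 2726 in sham thalamus. Only TBI rats 52 and 63 lay above the lowest sham rat. Its log2 fold change was -0.31 (SE 0.079, limma adjusted p = 0.00753). Cacna1h ran from 243 through 290 to 426 in TBI thalamus and from 286 through 358 to 647 in sham thalamus. Sham rat 26 stood apart at 647, the next being 395, and the groups overlapped. The log2 fold change of Cacna1h was -0.32 with a 95% interval from -0.70 to 0.065 (limma adjusted p = 0.187). It was -0.17 (adjusted p = 0.387) without rat 26 and -0.54 (adjusted p = 0.0412) without the 3 choroid-rich rats, so its size rests on single libraries.

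Pex5l ran from 5905 through 7269 to 8807 in TBI thalamus, against 6947, 8978 and 9402 in sham thalamus. The sets overlapped, and 3 TBI rats lay below the lowest sham rat. The log2 fold change was -0.23 with an interval from -0.45 to -0.010 (limma adjusted p = 0.0973). With the rat as a block the adjusted p was 0.0472, in the fit of all 24 libraries 0.0485, without rat 32 it was 0.0314 and without rat 63 it was 0.0472. In 17 of 21 other settings Pex5l in thalamus stayed short of the threshold, as in the main fit. Among these were TMM scaling (limma adjusted p = 0.184) and edgeR (adjusted p = 0.213). Without the 3 choroid-rich rats its log2 fold change was -0.17 (limma adjusted p = 0.321).

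**Figure D3:**
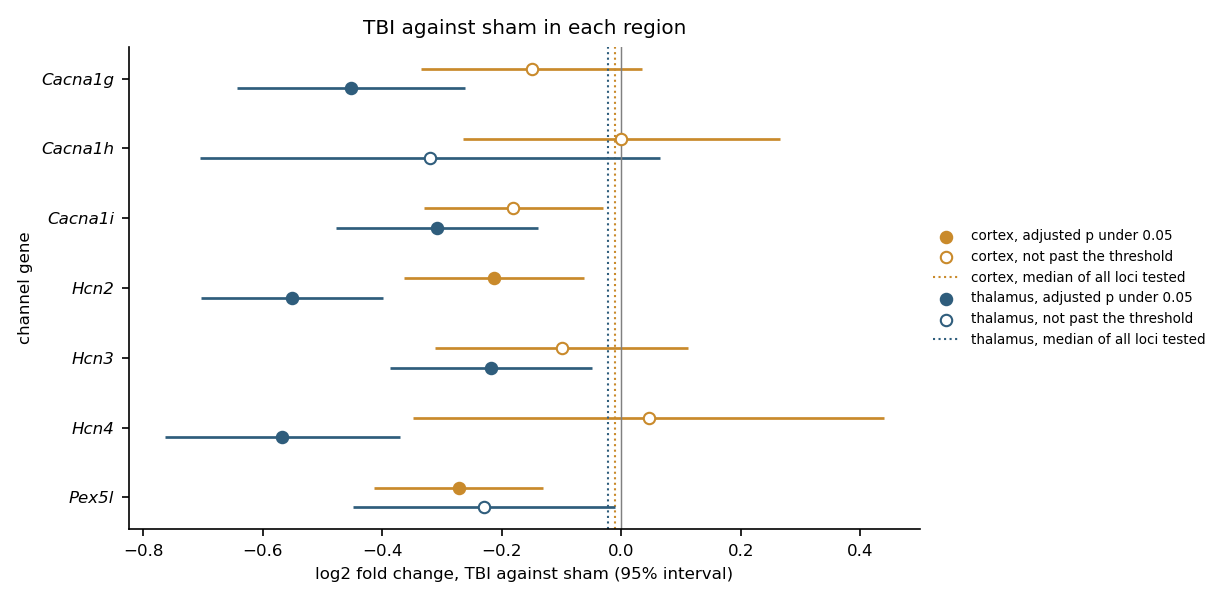
Log2 fold change of each channel gene in TBI against sham-operated rats in cortex and in thalamus, with 95% intervals; filled points have an adjusted p under 0.05, open points do not, and dotted lines give the median of all loci tested. In thalamus 5 of the 7 genes are filled, led by Hcn4 (-0.57) and Hcn2 (-0.55), and in cortex only Pex5l (-0.27) and Hcn2 (-0.21) are.

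In the perilesional cortex the estimated changes were smaller than in thalamus for every channel gene but Pex5l (-0.27 in cortex, -0.23 in thalamus). Only for Hcn2 did the difference between regions pass the threshold. Pex5l and Hcn2 were lower in TBI rats, and 5 genes did not pass the threshold. Of all loci tested, 14.9% were called lower and 14.3% higher, and the groups did not overlap for 12.5% of loci and for 0 of the 7 genes. The median log2 fold change of the 7 genes was -0.15, against -0.0096 for all loci.

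Pex5l ran from 9696 through a median of 10356 to 12074 normalised counts in TBI cortex, against 10731, 12907 and 13852 in sham cortex. Sham rat 55 was the lowest of its group and lay below TBI rats 22 and 63. The mean of Pex5l was 10573 ± 847 (SD, n = 6) in TBI and 12780 ± 1143 (SD, n = 6) in sham cortex, and the log2 fold change was -0.27 (SE 0.066, limma adjusted p = 0.00679). Without the 3 choroid-rich rats it was -0.21 (limma adjusted p = 0.0847). Over all loci 2502 were called in cortex in that fit, against 4531 in the main fit. Whether the lost call rests on choroid plexus or on the smaller number of rats was not tested. That fit kept sham rat 26, whose cortex library had the second highest choroid plexus sum, and left out rat 50, whose cortex sum was 2051. With any 1 rat left out Pex5l stayed past the threshold, with adjusted p from 0.00139 to 0.0194. Hcn2 ran from 3042 through 3603 to 3982 in TBI cortex and from 3496 through 4170 to 4560 in sham cortex. Only TBI rats 45 and 22 lay below every sham rat. The log2 fold change of Hcn2 was -0.21 (SE 0.071, limma adjusted p = 0.0345). It lost the threshold when rat 22, 32, 34, 38, 45 or 55 was left out, with adjusted p from 0.0572 to 0.0799.

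The T-type genes did not pass the threshold in cortex. Cacna1i ran from 6423 through 6769 to 7658 in TBI cortex and from 6792 through 7638 to 9487 in sham cortex. TBI rat 52 stood above the other TBI rats, and 4 TBI rats lay below every sham rat. The log2 fold change of Cacna1i was -0.18 (SE 0.070, limma adjusted p = 0.0657), and the adjusted p was 0.0410 without rat 52 and 0.0297 without sham rat 50. Cacna1g ran from 2795 to 3425 in TBI cortex with a median of 3075, within the sham range of 2754 to 4197. Its log2 fold change was -0.15 with an interval from -0.33 to 0.036 (adjusted p = 0.212 by limma). It was -0.088 (adjusted p = 0.414) without sham rat 32, -0.21 (adjusted p = 0.0609) without sham rat 50 and -0.25 (adjusted p = 0.0789) without the 3 choroid-rich rats. Cacna1h ran from 1258 to 2091 with a median of 1431 in TBI cortex, beside 1165 to 1790 in sham cortex. TBI rat 24 held the highest value and the other TBI rats lay within the sham range. The interval of the log2 fold change of Cacna1h ran from -0.27 to 0.27, and its estimate ran from -0.10 without rat 24 to 0.056 without rat 32, so no direction can be given.

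Hcn3 and Hcn4 were low in cortex and did not pass the threshold there. Hcn3 ran from 425 to 629 in TBI cortex with a median of 483, over a sham range of 436 to 589. Its log2 fold change was -0.10 with an interval from -0.31 to 0.11, and it was -0.056 without rat 22, -0.17 without rat 24 and -0.16 without rat 50. Hcn4 ran from 116 to 263 in TBI cortex with a median of 150, over a sham range of 112 to 190. TBI rat 24 was highest for both genes. The interval for Hcn4 in cortex, from -0.35 to 0.44, was the widest of the 7. Its estimate was 0.046, with -0.10 without rat 24, 0.13 without rat 56 and -0.16 without the 3 choroid-rich rats, so no direction can be given for Hcn4 either.

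The TBI effect itself was compared between regions in 1 fit over all 24 libraries. Hcn2 was the only channel gene whose fall was larger in thalamus than in cortex beyond the threshold, with a difference of log2 fold changes of -0.34 (SE 0.10, limma adjusted p = 0.0470). Of all loci tested, 7.26% were called in this comparison in either direction, and 4.54% in the direction of Hcn2. The call was near the threshold. It was lost without rat 22, 24, 38, 50, 52, 55 or 56 (adjusted p from 0.0633 to 0.128), without the 3 choroid-rich rats (0.0962) and in edgeR (0.0842), and with the rat as a block the adjusted p was 0.0230. Without the 3 choroid-rich rats the difference itself was little changed, at -0.32 (SE 0.10). In that fit 430 of all loci were called for the difference, against 1138 in the main fit. Hcn4 had a larger but more variable difference of -0.61 (SE 0.22, adjusted p = 0.0885 by limma), and Cacna1g had one of -0.30 (SE 0.13, adjusted p = 0.167 by limma), which was -0.17 (adjusted p = 0.646) without the 3 choroid-rich rats. The differences of Cacna1h (-0.32, interval from -0.80 to 0.16), Cacna1i (-0.13, from -0.35 to 0.099), Hcn3 (-0.12, from -0.39 to 0.15) and Pex5l (0.043, from -0.22 to 0.31) did not pass the threshold. Single rats moved these 4 by over 1.5 times. Without rat 26 the difference was -0.13 for Cacna1h, -0.065 for Cacna1i and -0.062 for Hcn3, and without rat 24 it was -0.20 for Cacna1h, -0.018 for Hcn3 and -0.031 for Pex5l. It was -0.19 for Cacna1i and -0.015 for Pex5l without rat 32, -0.067 for Hcn3 without rat 50, and from 0.023 to 0.11 for Pex5l without rat 34, 38, 55 or 56. Without the 3 choroid-rich rats it was -0.51 for Cacna1h and -0.047 for Hcn3.

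After TBI every channel gene kept the region in which it was higher. Between TBI thalamus and TBI cortex, 4 genes were called higher and 3 lower, where 32.7% of all loci were called higher and 27.9% lower. The 2 groups had no overlap for each of the 7 genes and for 36.1% of all loci. Hcn4 in TBI thalamus was 12.9 times its level in TBI cortex (log2 fold change 3.69, SE 0.15), Cacna1g 2.22 times (1.15, SE 0.093), Hcn3 1.98 times (0.98, SE 0.092) and Hcn2 1.55 times (0.64, SE 0.073). Cacna1h in TBI thalamus was at 0.210 of its level in TBI cortex (log2 fold change -2.25, SE 0.16), Cacna1i at 0.273 (-1.87, SE 0.077) and Pex5l at 0.695 (-0.52, SE 0.091). Cacna1g, Hcn2 and Hcn4 thus had the same order of groups, with sham thalamus first, TBI thalamus next and both cortex groups below; the sham and TBI thalamus groups did not overlap, and the cortex groups overlapped each other. For Hcn3 the order was the same, but the thalamus groups overlapped as the cortex groups did. For Cacna1h, Cacna1i and Pex5l both cortex groups stood above both thalamus groups, and neighbouring groups within a region overlapped.

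Neuronal markers moved in the same direction as the channel genes. Of 12 pan-neuronal markers, 9 were lower in TBI cortex and 10 in TBI thalamus, and 0 were higher. The mean log2 level of the 12 differed between TBI and sham-operated rats by -0.37 in cortex and by -0.54 in thalamus. Their summed level ran from 240966 to 307109 normalised counts in TBI thalamus and from 361314 to 421091 in sham thalamus, and from 328849 to 419228 in TBI cortex and from 448820 to 480853 in sham cortex. The neurofilament genes Nefh (log2 fold change -1.43 in thalamus) and Nefm (-1.02) moved most among them. The sums of TBI and sham-operated rats did not overlap in either region. Syt1 is 1 of the 12 markers. The study reported it lower in thalamus by sequencing but found no significant change of it by quantitative PCR.

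Each channel gene was then set against the mean log2 level of the 12 pan-neuronal markers in the same library. On this scale Hcn2 differed by -0.015 between TBI and sham thalamus (exact permutation test over 12 libraries, two-sided, p = 0.725) and Hcn4 by -0.031 (exact permutation p = 0.712). Cacna1g differed by 0.083 in thalamus (exact permutation p = 0.227). For the 3 genes with the largest falls, no difference relative to the pan-neuronal markers was detectable with 6 rats a group. The reference was a mean, which differed by -0.54 between TBI and sham thalamus. The median log2 fold change of the 12 markers there was smaller, at -0.46, with Hcn2 at -0.55 and Hcn4 at -0.57. A reference without Nefh and Nefm, which moved most among the pan-neuronal markers, was not tested. Hcn3 (0.32, exact permutation p = 0.00866), Pex5l (0.31, exact permutation p = 0.0368), Cacna1i (0.23, exact permutation p = 0.0281) and Cacna1h (0.22, exact permutation p = 0.387) were higher relative to these markers in TBI than in sham thalamus on average. Over the 14 tests of 7 genes in 2 regions, none had a Benjamini-Hochberg adjusted p under 0.05, the lowest being 0.121 for Hcn3 in thalamus. Without rat 26, Hcn3 and Cacna1i in thalamus reached an adjusted p of 0.0455. In cortex the differences ran from 0.099 for Pex5l to 0.42 for Hcn4, all above 0, with adjusted p from 0.145 to 0.289 in the exact permutation test. The mean of the markers differed by -0.37 in cortex, but their median log2 fold change was -0.26. Pex5l stood at -0.27 there, so its sign on this scale rests on the mean as reference. The part of neuron number in the channel results was not tested.

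**Figure D4:**
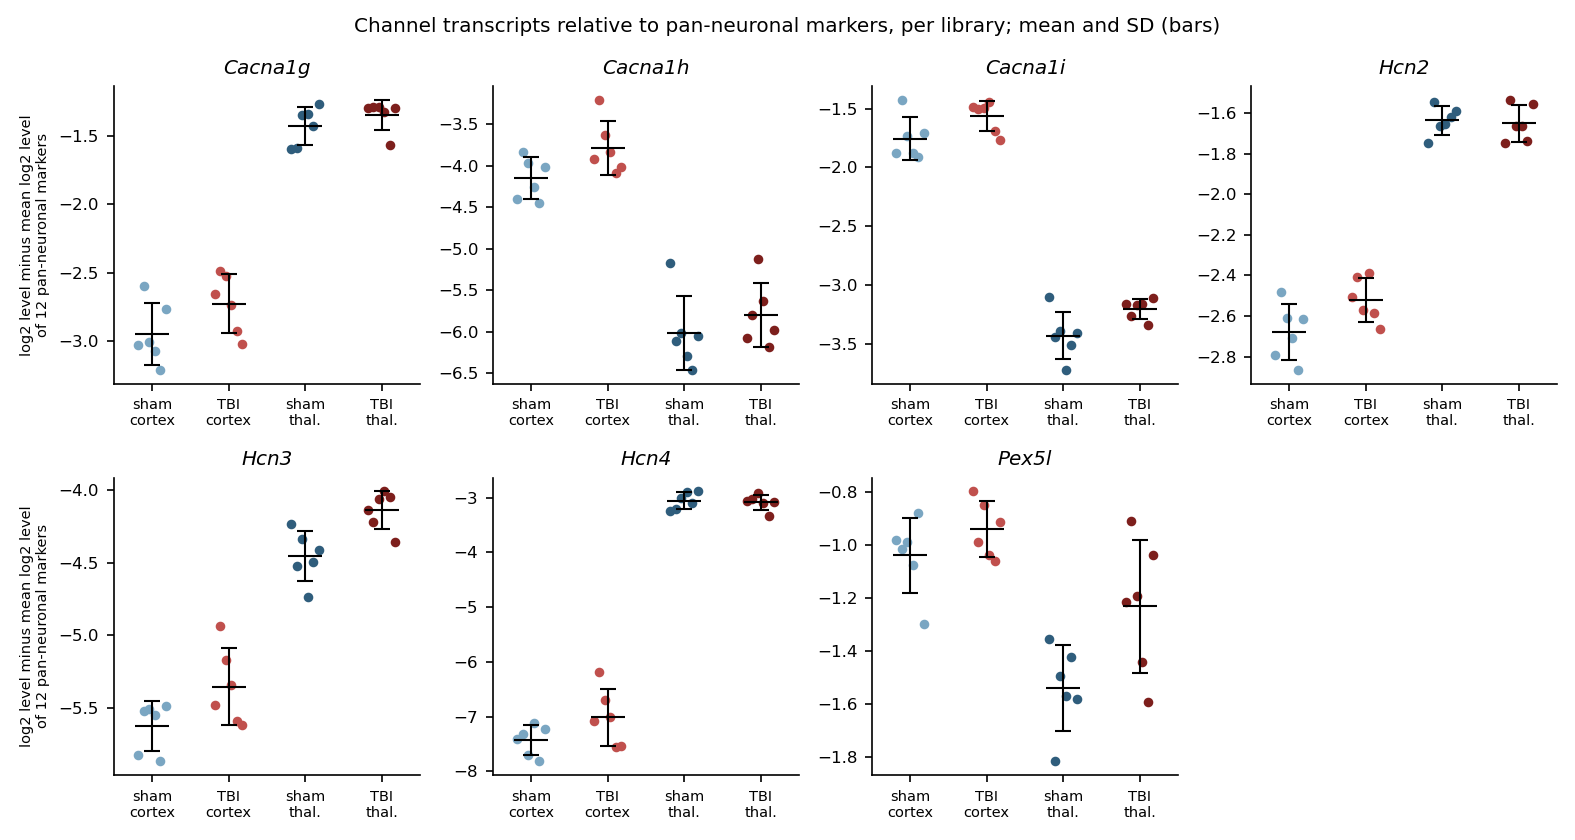
Log2 level of each channel gene minus the mean log2 level of 12 pan-neuronal markers in the same library, for 6 rats in each of sham cortex, TBI cortex, sham thalamus and TBI thalamus (thal.), with bars for the mean and SD; each panel has its own axis. Sham and TBI thalamus overlap for Hcn2, Hcn4 and Cacna1g, where the differences were -0.015, -0.031 and 0.083, and TBI thalamus lies higher for Hcn3 by 0.32.

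Markers of the cells that carry these channels were read in the thalamus. Among 11 relay neuron markers, 6 were lower in TBI rats and 0 higher, with a median log2 fold change of -0.21, and under TMM scaling 4 were lower and 2 higher. The largest fall was that of Prkcd (-0.82, SE 0.10), a kinase gene of relay neurons. Their summed level ran from 77137 to 93784 in TBI and from 99737 to 130063 in sham thalamus. Cortical excitatory markers, like Cacna1h, Cacna1i and Pex5l higher in cortex, also had a lower sum in TBI thalamus. The median of this sum was 6512 (5278 to 8054) in TBI and 11778 (8002 to 14113) in sham thalamus. The ranges overlapped slightly, with sham rat 26 the lowest of its group. Of 6 such markers tested there, 2 were called lower and 0 higher. The part of cortical cells in the thalamus results was not tested. Among 8 markers of the reticular nucleus and other GABA neurons, 5 were lower and 1 higher, with a median of -0.85. The GABA-synthesis gene Gad1 had a log2 fold change of -0.85 (SE 0.24), Six3, a transcription factor gene of the reticular nucleus, one of -0.88 (SE 0.23), and Pvalb, the parvalbumin gene, one of -1.19 (SE 0.19). Ecel1 was the one that was higher (0.73, SE 0.17). The summed level of the 8 ran from 7708 to 19295 in TBI and from 21689 to 41134 in sham thalamus, without overlap.

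The 2 ends of that range were rats that also stood at the ends for T-type genes. Sham rat 26, at 41134, held the highest Cacna1h (647) and Cacna1i (2726) of all thalamus libraries, together with the lowest Cacna1g (7753), Hcn2 (6973) and Hcn4 (2475) of the sham group. TBI rat 45, at 7708, held the lowest Cacna1i (1654) and Hcn2 (4707) and, in contrast, the highest Cacna1h (426) of the TBI group. The thalamus library of rat 45 also had the highest choroid plexus sum (246371). Its pan-neuronal (240966) and relay neuron (77137) sums were the lowest of the TBI group. Without rat 26 the log2 fold change of Cacna1i in thalamus was -0.26 (limma adjusted p = 0.0163), and without rat 45 it was -0.27 (limma adjusted p = 0.0158). The part of the reticular nucleus in the samples was not tested. All 10 microglial markers were higher in TBI thalamus and 9 of 10 in TBI cortex, with median log2 fold changes of 1.06 and 0.69. Of the astrocyte markers, 5 of 8 were higher in each region, with 2 lower in cortex.

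The other genes of these pathways were read as 4 groups. Their counts stand beside the shares of all loci tested. In cortex 14.3% were called higher and 14.9% lower, and in thalamus 14.5% higher and 20.9% lower. In the group of other burst and resting conductances, 14 of 17 genes were lower in TBI cortex and 10 of 17 in TBI thalamus, with 1 higher in each and median log2 fold changes of -0.31 and -0.30. In thalamus the largest falls were those of Kcnq3 (-0.69, SE 0.13), which carries part of the M-current, and Kcnn1 (-0.64, SE 0.09), a calcium-activated potassium channel gene. The one that rose there was Trpc4 (0.43, SE 0.08), a cation channel gene. In cortex Atp2a2, the calcium pump of the endoplasmic reticulum, had a log2 fold change of -0.40 (SE 0.04) and Kcnn3, another calcium-activated potassium channel gene, was higher by 0.43 (SE 0.13). Under TMM scaling 10 genes of this group were lower and 2 higher in thalamus.

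Among 18 enzymes that make or break down cyclic nucleotides, 7 were lower and 2 higher in TBI cortex, and 8 were lower and 2 higher in TBI thalamus. The medians were -0.18 and -0.17. Adcy1, a calcium-stimulated adenylyl cyclase of neurons, fell by 0.87 on the log2 scale (SE 0.10) in thalamus and by 0.34 (SE 0.06) in cortex. Pde7b, a cyclic AMP phosphodiesterase, fell by 0.74 (SE 0.09) in thalamus, and Adcy9 fell by 0.31 (SE 0.06) in cortex. Adcy7, an adenylyl cyclase known from immune cells, rose by 0.57 (SE 0.10) in cortex and by 0.62 (SE 0.11) in thalamus. Pde1c rose by 0.46 (SE 0.12) in cortex and Pde1a by 0.39 (SE 0.13) in thalamus.

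Of 8 partners and regulators of HCN channels, 2 were higher and 1 lower in TBI cortex, and 2 were higher and 2 lower in TBI thalamus, with medians of -0.093 and -0.11. Lrmp, whose product changes the response of HCN4 channels to cyclic AMP and which is also expressed by lymphoid cells, rose by 0.87 (SE 0.08) in thalamus and by 0.27 (SE 0.09) in cortex. Flna, which encodes filamin A, rose by 0.45 (SE 0.16) in thalamus and 0.49 (SE 0.16) in cortex. Nedd4l, a ubiquitin ligase gene, fell by 0.32 (SE 0.05) in thalamus, and Apba2 fell by 0.24 (SE 0.06) in thalamus and by 0.19 (SE 0.04) in cortex. Of the T-type channel regulators, 2 of 7 tested were lower in cortex and 2 of 8 in thalamus, and 0 were higher, with medians of -0.070 and -0.063; under TMM scaling 1 was higher and 1 lower in thalamus. Cacna2d1, the auxiliary calcium channel subunit that binds gabapentin, fell by 0.49 (SE 0.10) in thalamus and by 0.29 (SE 0.08) in cortex. Wwp1, a ubiquitin ligase gene, fell by 0.28 (SE 0.09) in cortex, and Usp5, which encodes a deubiquitinase of Cacna1h channels, fell by 0.18 (SE 0.05) in thalamus.

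**Figure D5:**
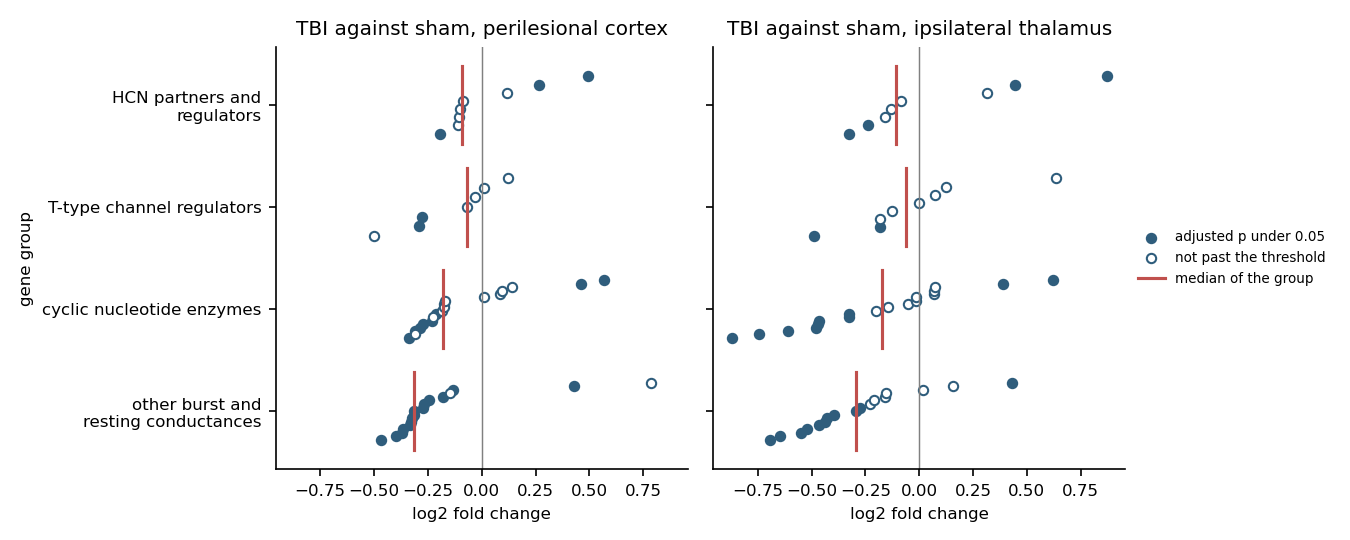
Log2 fold change in TBI against sham-operated rats for the genes of the 4 pathway groups, 1 point per gene, in cortex (left) and thalamus (right); filled points have an adjusted p under 0.05 and red lines mark the median of each group. The medians of the group of other burst and resting conductances are -0.31 in cortex and -0.30 in thalamus, and those of the HCN partners and regulators are -0.093 and -0.11.

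The pattern of each channel gene over the 24 libraries was set beside that of every other named locus with a mean of at least 10, as a description. Over the 24 libraries, which are shared by all genes and differ above all by region, the most alike loci were Ctif (Pearson r = 0.990), Cit (0.989) and Abca7 (0.988) for Cacna1g, Pitpnm2 (0.987), Psd (0.984) and Neurl1a (0.984) for Cacna1h, and Epb41l1 (0.993), Fbxo41 (0.992) and N6amt2 (0.992) for Cacna1i. For Hcn2 they were NSMF (0.985), ENSRNOG00000046694 (0.983) and Lrrc59 (0.982), for Hcn3 Ppfia4 (0.988), the joined locus of Ache and Ufsp1 (0.985) and Tox2 (0.982), and for Hcn4 RGD1566029 (0.998), Inadl (0.994) and Sema4g (0.994). Pex5l was less closely matched, by Nr2c2 (0.957), Cdk19 (0.956) and Apc (0.955).

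With the 4 group means removed, so that r describes rats within a group, the first loci were Lphn1 (0.907), Dagla (0.892) and Plekha6 (0.889) for Cacna1g, Pitpnm2 (0.831), Zc3h7b (0.818) and Mn1 (0.812) for Cacna1h, and Fa2h (0.836), Pacs2 (0.793) and Nkd1 (0.789) for Cacna1i. They were Nat8l (0.886) and Fam57b (0.877) for Hcn2, Gpsm1 (0.885), RGD1311739 (0.876) and Coro7 (0.862) for Hcn3, Zfhx2 (0.903), RGD1566029 (0.869) and Fam222b (0.865) for Hcn4, and Apitd1 (0.900), Ptprd (0.884) and Exoc6b (0.880) for Pex5l. Between channel genes the within-group r over 24 libraries was highest for Cacna1g with Hcn4 (0.684) and with Hcn2 (0.632). It was 0.293 for Hcn2 with Hcn4, 0.533 for Cacna1h with Hcn3, and lowest for Hcn3 with Pex5l (-0.455). Over the pooled 24 libraries, 2 from each rat, those high for Cacna1g for their group tended to be high for Hcn4 and Hcn2. Pex5l followed none of the other 6 with an r over 0.062. Whether these relations hold within each of the 4 groups was not tested.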

How the data were processed

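Polyadenylated RNA of 24 libraries, 1 per rat and region, was analysed. Per the labels and the study's methods, the authors aligned stranded reads with TopHat2 2.0.11 and Bowtie2 2.2.2, assembled transcripts with Cufflinks 2.2.1 and quantified loci with Cuffdiff. The deposited values are a signal: fragment numbers scaled by 1 size factor per library. The value of 1 fragment was 0.688 to 1.25, and 100% of the low values of each library were whole multiples of it within 0.1 of a fragment, so whole fragments could be recovered. The 15693 loci without a gene name held 1.90% to 2.23% of the values and were left out. Names were matched ignoring case, since the annotation spells Cacna1g in capitals.

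The test was limma 3.58.1 under R 4.3.3, with a trended prior variance, on log2(value + 1) of named loci with a mean of at least 10. P-values were adjusted by Benjamini-Hochberg over all loci tested, at a threshold of 0.05. This scale understates changes of low genes. Injury was tested within each region over 12 libraries. The difference between regions and the region contrasts came from 1 fit of 24 libraries without a block. The 2 libraries of a rat carry its number, and their deviations from the group means had a median r of 0.187 over 12 rats, against -0.0332 for different rats. The alternatives were TMM scaling, no filter on low values, a minimum mean of 50, a pseudocount of 0.1 or 5, edgeR 4.0.16 (quasi-likelihood with TMM) on recovered fragments, the rat as a replicate block, all 24 libraries in 1 fit, and each rat left out. The scale relative to pan-neuronal markers and the fit without the 3 choroid-rich rats were chosen after seeing the data. Libraries of a group differed by more than sampling noise. The steps were tested on simulated data, and figures were drawn with matplotlib 3.10.9 in Python 3.11.15.

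The channel genes and all gene lists were chosen with earlier results of these data known. Named beside the 7 genes were, in each list and region, the 2 largest rises and 2 largest falls past the threshold, the 3 loci most like each gene, and markers on which a result turned. In the group of other conductances and among the most alike loci, 1 gene each is not reported here.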

Additional observations from a re-analysis of the deposited data

Results flagged for a closer look

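In 28 groups of 6 libraries, 7 genes in 4 groups, 3 had a highest library farther from the rest than Dixon's 95% critical value allows, and about 1.4 were to be expected by chance. Cacna1h in sham thalamus was 647 normalised counts in rat 26, the next being 395, with a gap of 0.699 of the group's range. Cacna1h in TBI cortex was 2091 in rat 24, the next being 1460 (gap 0.757 of the range); without that rat the log2 fold change of Cacna1h in cortex was -0.10 (limma adjusted p = 0.493). Cacna1i in TBI cortex was 7658 in rat 52, the next being 6827 (gap 0.673 of the range).

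The TBI effect on Hcn2 differed between thalamus and cortex by -0.34 on the log2 scale (limma adjusted p = 0.0470). That was the test of the difference itself, with values of -0.55 in thalamus and -0.21 in cortex. The call was near the threshold and was lost in 10 of 20 other settings.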

How the results depend on the processing

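Under the other settings 679 values of single genes were computed. Of these, 644 stayed on the same side of the threshold, 29 lost it and 6 gained it. A change of sign occurred in 9 values, none of them called: Cacna1h and Hcn4 in cortex, and Pex5l in the difference between regions, with single rats left out. The region contrasts, and Cacna1g, Cacna1i, Hcn2 and Hcn4 in thalamus, kept their calls under each of these settings. The number of channel genes lower in TBI cortex was 2, and 1 without the filter on low values and 1 without the 3 choroid-rich rats. It ran from 1 to 3 with each rat left out, and the cause was not tested. In TBI thalamus it was 5 and ran from 4 to 6. Without the choroid-rich rats it was also 5, with Cacna1h called and Hcn3 not called. Over all loci 4241 were called in thalamus in that fit, against 5516 in the main fit. The number with a larger fall in thalamus than in cortex was 1, and 0 without the filter, 0 in edgeR and 0 without the choroid-rich rats, and it ran from 0 to 1 with each rat left out.

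With the rat as a replicate block the consensus correlation was 0.135, Hcn3 in thalamus had an adjusted p of 0.0722 and Pex5l in thalamus one of 0.0472, and no other call of the channel genes changed. In that fit 1612 loci were called for the difference between regions, against 1138 without the block. Scaling and model moved the balance of calls over all loci in thalamus. Of the loci called there, 59.0% were lower with the deposited scaling, 45.7% with TMM scaling within the region and 44.9% in edgeR, and the median log2 fold change of all loci was -0.023, 0.026 and 0.032. For the difference between regions the share lower was 62.5%, against 64.3% with TMM scaling and 48.1% in edgeR, and the cause was not tested. Depth did not limit these genes, which had at least 100 fragments in every library. The 6 rats a group and the spread among them set the width of the intervals.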
